A study of Mus musculus with 15 samples.

Results

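Fatty acid oxidation and the other targets of PPAR alpha were followed through 36 genes, chosen by symbol for what their products do in this pathway, with earlier results of these data known. All 36 were present in a table of 55984 gene symbols, and all 36 passed the filter on low counts that left 17488 genes for testing. The RNA came from hepatocytes of WT adult male C57BL/6JJcl mice, which had been stained with Hoechst and sorted by flow cytometry from livers of individual animals. The 2n-whole and 4n-whole groups were the complete diploid and tetraploid gates, with 4 libraries each from mice 1 to 4. Tetraploid cells were also sorted by the height of the Hoechst signal into 4n-bottom, with 4 libraries and enriched for binucleated cells, and 4n-top, with 3 libraries from mice 2 to 4 and enriched for mononucleated cells. The enrichment of 4n-top was incomplete, and a 4n-top library of mouse 1 was not analysed here. Libraries of the same mouse are gates on the same liver, not separate animals.

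The hepatocyte identity of the libraries was checked with markers, of which 9 of 10 were in the table. Their summed level lay between 80800 and 113000 CPM (counts per 1000000 of the normalised library size) in the 15 libraries, and none of them was called by edgeR between populations. In 4n-whole against 2n-whole, 1 of the 9 had an edgeR adjusted p below 0.05 but missed the fold limit of the call. An unadjusted p under 0.05 was found for 5 of the 9 there, beside 3570 of all 17488 genes. The median sum was 100300 CPM in 2n-whole and 84780 CPM in 4n-whole. Total counts ranged from 22049498 to 42096421 per library. The share of counts from the mitochondrial genome was 20.5% to 26.2% in 2n-whole, 8.84% to 18.5% in 4n-whole, 12.2% to 23.6% in 4n-bottom and 11.9% to 13.02% in 4n-top. The 4n-whole library of mouse 2 had both the lowest total count and the lowest mitochondrial share, and leaving it out changed no count of pathway genes called between populations. The part of the mitochondrial share in the results was not tested beyond a fit without these transcripts, which gave the same counts of pathway genes called between populations.

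In the liver, long-chain fatty acids are taken up, bound, activated to acyl-CoA and carried into mitochondria as acylcarnitines, where the β-oxidation spiral shortens them and passes electrons to the respiratory chain. Peroxisomes begin the shortening of very long chains, and microsomal enzymes of the Cyp4a family oxidise the omega end. PPAR alpha, the nuclear receptor encoded by Ppara, is activated by fatty acids, pairs with a retinoid X receptor on DNA and raises the expression of genes at most of these steps, above all during fasting. Its classical binding element is a direct repeat of AGGTCA with 1 base between the copies (DR1).

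The DR1 letters, AGGTCA, any 1 base and AGGTCA again, were searched on both strands of RefSeq promoters (GRCm38.p6, 250 bases before to 50 bases after the annotated start), which were given for 29 of the 36 genes. No exact copy was found in the 29, and 0.05% of all 27025 promoters held one. With up to 1 mismatch among the 12 fixed letters, the Fabp1 promoter matched (3.4% of the genes against 0.64% of all promoters). With up to 2 mismatches, 6 promoters matched, those of Fabp1, Cd36, Echs1, Etfa, Plin2 and Slc25a20 (20.7% against 4.4% of all promoters). A match of this kind describes the letters only, and no binding was measured. Shown here, because their genes are among those that stood apart between populations or between mice, are the matches of Fabp1 (chr6:71199802-71199834, plus strand), Cd36 (chr5:17835937-17835969, minus strand) and Plin2 (chr4:86670262-86670294, minus strand), each read 5′ to 3′ on the strand of the gene with the matched letters in capitals. All 3 carry the motif on the opposite strand.
Fabp1: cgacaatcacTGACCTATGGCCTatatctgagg
Cd36: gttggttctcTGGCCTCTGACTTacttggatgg
Plin2: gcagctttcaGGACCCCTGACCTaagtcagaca
The first matched base lay 67 bases before the start of Fabp1, 63 before that of Cd36 and 225 before that of Plin2. The promoters of Crat, Acaa2, Decr1, Hsd17b4, Cyp4a10, Cyp4a14 and Vnn1 were not analysed here.

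The genes covered a wide range of levels. Divided by the length of the transcript, the mean level was highest for Fabp1, the liver fatty acid binding protein, at 3424 CPM per kb, followed by Acaa2, the mitochondrial 3-ketoacyl-CoA thiolase, at 471.7 CPM per kb, and Acaa1b, a peroxisomal thiolase, at 306.4 CPM per kb. The lowest levels were those of Fgf21, a hormone secreted in fasting, at 0.2935 CPM per kb, and of Pdk4, a kinase that restrains pyruvate oxidation, at 3.018 CPM per kb. Fgf21 had 0 to 28 counts per library, too few for a fold change to be given.

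Setting the tetraploid gate beside the diploid gate asks what goes with the number of genome copies in a hepatocyte. After sorting, the authors spun 2n cells harder and for longer than 4n cells. Genome copies and this step cannot be told apart in any comparison with 2n-whole. A gene was called at an adjusted p below 0.05 (edgeR quasi-likelihood F test with the mouse as a block, Benjamini-Hochberg over 17488 genes) and an absolute log2 fold change above 0.5. By this rule Acaa1b and Pdk4 were higher and Cd36 was lower in 4n-whole, and 33 of the 36 genes were not called. The 3 called genes are 8.33% of the 36, beside 3.47% of all genes tested (1.74% higher and 1.73% lower). The median log2 fold change of the 36 was -0.01, and that of all genes was also -0.01. Apart from Fgf21, the fold changes of the uncalled genes lay between -0.36 and 0.30 on the log2 scale, with standard errors of 0.08 to 0.21. Without the mouse as a block, no gene of the 36 was called in any comparison of populations, with 4 at an unadjusted p under 0.05 in this one. The share of all genes called in that fit is not given here, so the loss cannot be called particular to the 36.

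**Figure D1:**
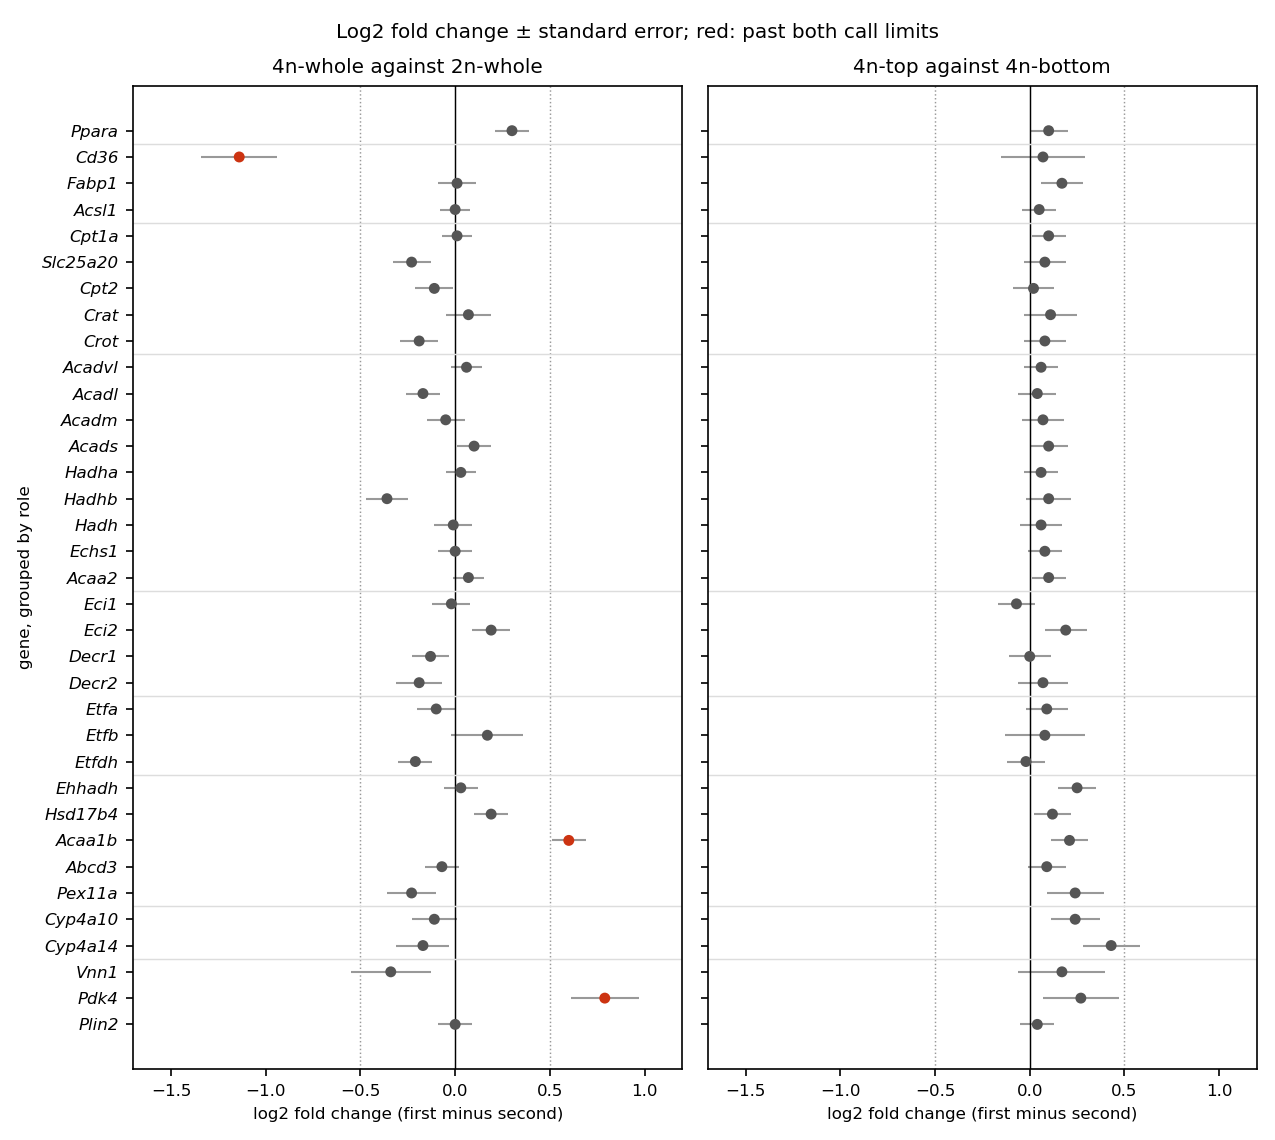
Log2 fold change with its standard error (horizontal axis) of 35 genes grouped by role (vertical axis; Fgf21 is left out for its low counts), for 4n-whole against 2n-whole on the left and 4n-top against 4n-bottom on the right. Red points passed both limits of the call, the dotted lines mark a log2 fold change of 0.5 in either direction, and only Cd36, Acaa1b and Pdk4 on the left are red, while most points on the right lie just above 0.

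Cd36 (chr5:17986432-18094067, minus strand, GRCm39, GENCODE M39) encodes a fatty acid transporter of the plasma membrane. Its level in 2n-whole was 32.2, 30.4, 31.3 and 45.3 CPM in mice 1 to 4, and in 4n-whole it was 23.7, 5.45, 17.0 and 20.9 CPM. Every 4n-whole library lay below every 2n-whole library. The log2 fold change was -1.14 ± 0.20 (SE, edgeR adjusted p = 0.000843), which is 2.21-fold lower in 4n-whole, and it was lower in 4 of 4 mice. The size in single mice was uneven, with log2 differences of -0.44, -2.47, -0.87 and -1.12 in mice 1 to 4.

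Both tetraploid fractions also had less Cd36 than 2n-whole. In 4n-bottom the level was 13.6, 12.7, 12.1 and 18.2 CPM in mice 1 to 4, and in 4n-top it was 8.57, 15.3 and 21.7 CPM in mice 2 to 4. Neither fraction overlapped with 2n-whole. In 4n-bottom the drop was nearly the same in every animal, with log2 differences of -1.25, -1.25, -1.37 and -1.31, and the fold change was -1.30 ± 0.20 (edgeR adjusted p = 0.000696). In 4n-top it was -1.23 ± 0.23 (edgeR adjusted p = 0.00211), lower in 3 of 3 mice. These comparisons use the same 2n-whole libraries as the comparison of the whole gates and are not independent of it. Cd36 was the only one of the 36 genes called in 4n-bottom against 2n-whole (2.78%, beside 0.463% of all genes, with 0.229% lower in 4n-bottom) and in 4n-top against 2n-whole (2.78%, beside 0.961% of all genes, with 0.44% higher and 0.52% lower in 4n-top). Between 4n-top and 4n-bottom its log2 fold change was 0.07 ± 0.22. Without the mouse as a block, the log2 fold changes of Cd36 in 4n-whole, 4n-bottom and 4n-top against 2n-whole were -1.05, -1.30 and -1.20, with adjusted p of 0.214, 0.842 and 0.398.

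Cd36 is also made by endothelial cells and macrophages, and in bulk RNA fewer cells of a type cannot be told apart from less RNA per cell. The 8 endothelial markers summed to 12.3 to 19.9 CPM in 2n-whole, 2.78 to 24.1 CPM in 4n-whole, 3.62 to 19.1 CPM in 4n-bottom and 3.83 to 12.8 CPM in 4n-top, with up to 4 of the 8 at 0 in a library. By edgeR 0 of the 8 were called against 2n-whole, while 2, 2 and 4 had an unadjusted p under 0.05 in 4n-whole, 4n-bottom and 4n-top, and their median log2 fold changes were -0.97, -1.31 and -1.33. Of all 17488 genes, 3570, 1777 and 1977 had such a p in these comparisons. From 2n-whole to 4n-bottom the endothelial sum went from 13.1 to 13.7 CPM in mouse 1, 19.9 to 19.1 CPM in mouse 2, 13.7 to 3.62 CPM in mouse 3 and 12.3 to 3.81 CPM in mouse 4, and the log2 difference of Cd36 in these mice was -1.25, -1.25, -1.37 and -1.31. The 4n-whole library with the lowest Cd36, that of mouse 2, had an endothelial sum of 24.1 CPM. The 8 Kupffer cell and macrophage markers, of which 7 were tested, summed to 0.715 to 8.62 CPM in 2n-whole, 1.2 to 2.97 CPM in 4n-whole, 0.561 to 3.91 CPM in 4n-bottom and 0.547 to 2.79 CPM in 4n-top, with 1 to 5 of them at 0. By edgeR 0 of these 7 were called, with 2, 1 and 4 at an unadjusted p under 0.05 in 4n-whole, 4n-bottom and 4n-top, and their median log2 fold changes were -2.23, -1.58 and -3.75. Of the 6 biliary markers 4 were tested, Spp1 was called lower in all 3 comparisons and Sox9 in 4n-whole, and the medians were -2.81, -2.06 and -4.96. The biliary sum was 34.6 to 47.4 CPM in 2n-whole and at most 32.0 CPM in the tetraploid libraries. From 2n-whole to 4n-bottom it went from 47.4 to 29.1, 45.8 to 30.4, 34.6 to 21.3 and 39.3 to 22.9 CPM in mice 1 to 4. The macrophage sum went from 0.715 to 2.57, 5.49 to 3.91, 4.59 to 0.561 and 8.62 to 1.47 CPM in the same mice. The part of endothelial cells, macrophages and biliary cells in the Cd36 result was not tested.

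**Figure D2:**
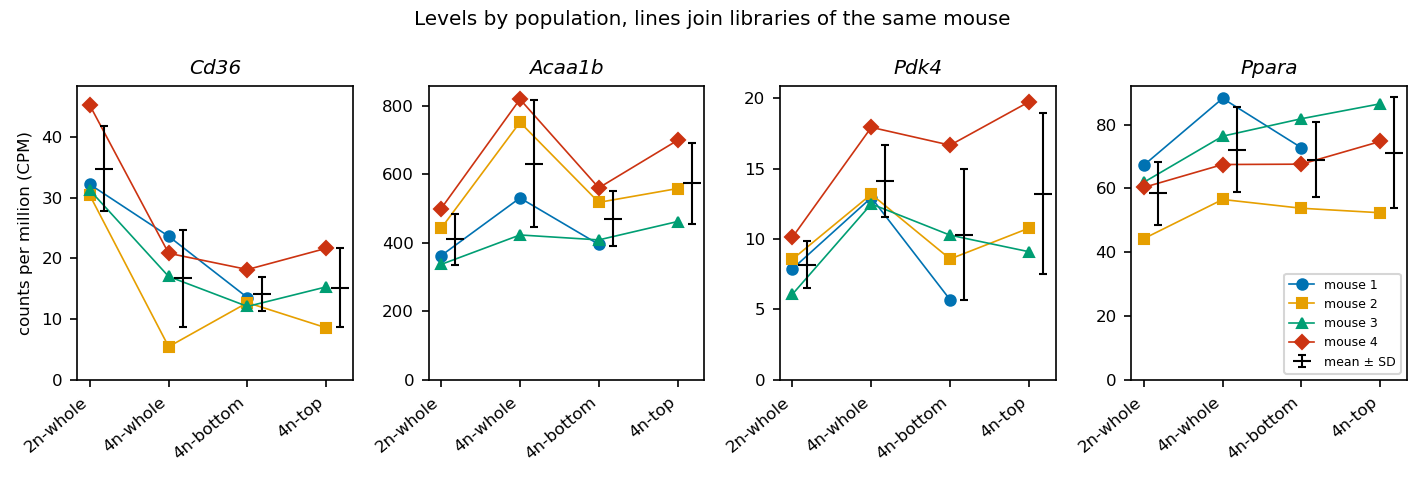
Level in CPM (vertical axis) of Cd36, Acaa1b, Pdk4 and Ppara in each library by population (horizontal axis), with lines joining libraries of the same mouse and black bars giving the mean and SD over mice. Cd36 is highest in 2n-whole in every mouse, and Acaa1b, Pdk4 and Ppara are higher in 4n-whole than in 2n-whole in every mouse.

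Ppara itself, the receptor, had 67.3, 44.2, 61.9 and 60.3 CPM in 2n-whole and 88.2, 56.5, 76.4 and 67.5 CPM in 4n-whole in mice 1 to 4. The groups overlapped, and within each mouse 4n-whole was the higher. Its log2 fold change of 0.30 ± 0.09 missed the adjusted p threshold (edgeR adjusted p = 0.0584). Over the alternatives its fold change was 0.27 to 0.34 and its adjusted p 0.00164 to 0.535, so that where the adjusted p passed the fold limit was not met. Against 2n-whole it was 0.24 ± 0.09 in 4n-bottom (adjusted p = 0.355, higher in 4 of 4 mice) and 0.34 ± 0.10 in 4n-top (adjusted p = 0.137, higher in 3 of 3 mice). The counts of this gene are uncertain, since 49.8% of the 75-base stretches of its transcript also occur in Cdpf1, which lies on the other strand, and the strand setting of the counting is not given in the sources used here.

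Among the other genes of uptake and activation, Fabp1 had 2944, 2373, 1120 and 1581 CPM in 2n-whole and 2660, 1904, 1526 and 1659 CPM in 4n-whole. The groups overlapped, and the log2 fold change was 0.01 ± 0.10. Acsl1, the main long-chain acyl-CoA synthetase of the liver, had 813.9 to 967.3 CPM over all 15 libraries. Its fold change between the whole gates was 0.00 ± 0.08 on the log2 scale.

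The carnitine shuttle moves activated acyl groups across the inner mitochondrial membrane. None of its genes was called between populations, whether Cpt1a, the rate-limiting outer transferase, Slc25a20, the carrier, Cpt2, the inner transferase, or Crat and Crot, which make short-chain and medium-chain acylcarnitines. Their log2 fold changes in 4n-whole against 2n-whole lay between -0.23 and 0.07. The lowest was that of Slc25a20, with 64.85, 63.44, 68.97 and 61.98 CPM in 2n-whole and 51.72, 50.03, 58.46 and 61.22 CPM in 4n-whole. Its groups did not overlap, but the change of -0.23 ± 0.10 had an edgeR adjusted p of 0.166. Groups without overlap were found for 4 of the 36 genes in this comparison (Cd36, Slc25a20, Hadhb and Pdk4), beside 5.8% of all genes.

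The mitochondrial β-oxidation spiral was represented by 9 genes. Acadvl, Acadl, Acadm and Acads encode acyl-CoA dehydrogenases for falling chain lengths, Hadha and Hadhb the subunits of the trifunctional protein, Hadh and Echs1 the short-chain hydroxyacyl-CoA dehydrogenase and enoyl-CoA hydratase, and Acaa2 the thiolase. None of the 9 passed the call for the whole gates, and apart from Hadhb their log2 fold changes lay between -0.17 and 0.10. Hadhb had 68.1, 69.6, 79.4 and 100.7 CPM in 2n-whole and 64.3, 51.8, 62.0 and 68.0 CPM in 4n-whole. It was lower in 4 of 4 mice without overlap, and its change of -0.36 ± 0.11 had an adjusted p of 0.0497 but stayed under the fold limit (4 of the 36 genes passed the limit on the adjusted p alone, beside 5.47% of all genes). The transcript of Hadhb shares 57.6% of its 75-base stretches with other annotated genes, most with the pseudogene Hadhb-ps (0.209 to 1.39 CPM), so its counts are uncertain. Hadha, the partner subunit, had a log2 fold change of 0.03 ± 0.08, and 47.6% of its stretches occur in neighbours such as Garem2.

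The auxiliary enzymes that handle double bonds (Eci1, Eci2, Decr1 and the peroxisomal Decr2) showed fold changes of -0.19 to 0.19 between the whole gates and no call. The electron transfer flavoprotein path, which passes electrons from the dehydrogenases to ubiquinone, had no call either, with values of -0.10 ± 0.10 for Etfa, 0.17 ± 0.19 for Etfb and -0.21 ± 0.09 for Etfdh. Etfb had only 4.22 to 8.02 CPM, while Etfa, the other subunit of the same heterodimer, had 165.6 to 274.3 CPM. In the GENCODE M39 annotation of GRCm39, Etfb lies at chr7:43093493-43107224 on the plus strand, and 43.5% of its exonic bases are shared with Etfbl on the same strand, which was at 0 in every library. The level of Etfb is therefore uncertain, and the part of the overlap in it was not tested.

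Among the peroxisomal genes, Acaa1b (chr9:118977091-118986161, minus strand, GRCm39) was the only one called. It had 362.2, 441.9, 336.6 and 499.7 CPM in 2n-whole and 530.5, 751.3, 422.5 and 818.5 CPM in 4n-whole, so the groups overlapped while each mouse had more in 4n-whole. The log2 fold change was 0.60 ± 0.09 (1.51-fold, edgeR adjusted p = 7.74e-05), higher in 4 of 4 mice with log2 differences of 0.55, 0.77, 0.33 and 0.71. In 4n-top against 2n-whole the change was 0.41 ± 0.10, with an adjusted p of 0.027 and a size under the fold limit (2 of the 36 genes passed the adjusted p alone, beside 1.06% of all genes), and in 4n-bottom it was 0.20 ± 0.09 (adjusted p = 0.424). Without the mouse as a block, the adjusted p of Acaa1b between the whole gates was 0.236. Acaa1a, the near-identical thiolase that together with Dlec1 on the other strand shares 37.8% of the stretches of Acaa1b, was also called, with a log2 fold change of 0.57 ± 0.11, so the reads of this pair may be divided between them in an unknown way.

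The other peroxisomal genes were not called. Ehhadh and Hsd17b4, the bifunctional enzymes, had log2 fold changes of 0.03 ± 0.09 and 0.19 ± 0.09. Abcd3, a transporter of the peroxisomal membrane, was at -0.07 ± 0.09, and Pex11a, a factor of peroxisome division, at -0.23 ± 0.13. Hsd17b4 was higher in 4n-whole in 4 of 4 mice, though its adjusted p was 0.216.

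Pdk4 (chr6:5483097-5496339, minus strand, GRCm39) had 7.89, 8.57, 6.09 and 10.1 CPM in 2n-whole and 12.95, 13.19, 12.5 and 17.95 CPM in 4n-whole. The groups did not overlap, and the log2 fold change was 0.79 ± 0.18 (1.73-fold, edgeR adjusted p = 0.00928), higher in 4 of 4 mice. Without mouse 4 the change was 0.77, nearly the same, with an adjusted p of 0.073, and without the mouse as a block the adjusted p was 0.3. Against 2n-whole, 4n-bottom stood at 0.27 ± 0.18 (adjusted p = 0.656) and 4n-top at 0.54 ± 0.20 (adjusted p = 0.268). Vnn1, a pantetheinase, Plin2, a coat protein of lipid droplets, and both omega hydroxylases, Cyp4a10 and Cyp4a14, were not called, with log2 fold changes between the whole gates of -0.34 ± 0.21, 0.00 ± 0.09, -0.11 ± 0.12 and -0.17 ± 0.14.

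Genes that mark the position of a hepatocyte in the lobule moved with these groups. Of 13 pericentral markers, 12 were called higher in 4n-whole than in 2n-whole, and their summed level was 962 to 1450 CPM in 2n-whole and 1330 to 4310 CPM in 4n-whole. Higher calls were made for 7 of them in 4n-bottom and 8 in 4n-top against 2n-whole. Of 13 periportal markers, 4 were called lower in 4n-whole. In mouse 2 the pericentral sum was 1020 CPM in 2n-whole and 1330 CPM in 4n-whole, while it was 3990 to 4310 CPM in the 4n-whole libraries of the other mice. The log2 differences of that mouse were 0.77 for Acaa1b, the largest of the 4 mice, 0.62 for Pdk4, the smallest, and -2.47 for Cd36, the largest drop. The part of lobular position in the results was not tested further.

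Setting 4n-top beside 4n-bottom asks what goes with having 1 nucleus or more at the same DNA content. Each fraction was only enriched, 4n-top less so than 4n-bottom, and the paper states that this likely weakened the differences it saw. None of the 36 genes was called (0 by edgeR and 0 by DESeq2), beside 0.0114% of all genes, which are 2 genes (0.00572% in each direction). At an unadjusted edgeR p under 0.05 there were 3, Cyp4a14 at 0.43 ± 0.15, Ehhadh at 0.25 ± 0.10 and Acaa1b at 0.21 ± 0.10, each with an adjusted p of 1. Such an unadjusted p was found for 488 of all 17488 genes. All fold changes of the 36 except that of Fgf21 lay between -0.07 and 0.43 on the log2 scale, with standard errors of 0.09 to 0.23.

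The fold changes leaned to 1 side, though each was small. They were above 0 for 32 of the 36 genes (88.9%, beside 50.2% of all genes), with a median of 0.09 against 0.00 in all genes. The 4 below 0 were Eci1, Decr1, Etfdh and Fgf21, and all 9 genes of the β-oxidation spiral were above 0, between 0.04 and 0.10. The 36 genes are measured in the same libraries, so this count carries no test. Other markers moved in the same comparison, as the periportal markers were above 0 for 1 of 13 (median -0.19, 5 at an unadjusted p under 0.05), the pericentral markers had a median of 0.28 (9 of 13 above 0, 8 at an unadjusted p under 0.05, with Glul called lower), and the markers of other cell types were above 0 for 5 of 26 (median -0.80). Their part in the lean was not tested. The number above 0 was 26 without mouse 3, 31 without mouse 2, 34 without mouse 4 and 28 without the mouse as a block. Of the 36, 9 were higher in 4n-top in all 3 mice (25.0%, beside 10.8% of all genes), namely Fabp1, Cpt1a, Acadvl, Acaa2, Eci2, Etfb, Ehhadh, Acaa1b and Cyp4a14. Only Eci1 was lower in all 3 (2.78%, beside 11.5% of all genes).

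Cyp4a14 shows how far a single animal carried such a difference. Its level was 113.6, 193.8 and 648.3 CPM in 4n-top and 112.1, 101.2 and 601.7 CPM in 4n-bottom of mice 2 to 4. The log2 differences were 0.02, 0.94 and 0.11, so mouse 3 gave nearly all of it. Without mouse 2 the gene was called in 4n-top against 4n-bottom (0.60, edgeR adjusted p = 0.0369), which made 1 called gene of the 36. It was also called lower in 4n-bottom against 2n-whole (-0.56, adjusted p = 0.00518), which made 2 (the shares of all genes called without mouse 2 are not given here). With all mice its change in 4n-bottom against 2n-whole was -0.45 ± 0.14 (adjusted p = 0.203), lower in 4 of 4 mice. Over the alternatives (edgeR or DESeq2), its lowest adjusted p was 0.029 in 4n-top against 4n-bottom and 0.00103 in 4n-bottom against 2n-whole. Both came from settings other than leaving out mouse 2, in which the gene was not called.

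Against 2n-whole, 4n-top and 4n-bottom were set side by side by direction within mice. In 4n-top, 15 of the 36 genes were higher in all 3 mice (41.7%, beside 17.9% of all genes). Cd36, Crot and Etfdh were lower in all 3 (8.33%, beside 16.1% of all genes). In 4n-bottom, 2 were higher in all 4 mice, Ppara and Acaa1b (5.56%, beside 10.1% of all genes), and 6 were lower in all 4, namely Cd36, Crot, Acadl, Cyp4a10, Cyp4a14 and Vnn1 (16.7%, beside 9.5%). The counts differ in the number of mice and share the 2n-whole libraries, so they are given as descriptions. Groups without overlap against 2n-whole were those of Cd36, Acadvl, Acaa2 and Hsd17b4 in 4n-top (beside 9.21% of all genes) and that of Cd36 in 4n-bottom (beside 3.52%), and between 4n-top and 4n-bottom there was none (beside 3.15%).

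If 4n-whole is the sum of 4n-top and 4n-bottom, its levels would fall between them. The paper draws the conventional 4n gate on a different plot from these fractions, so 4n-whole need not be their sum. By mean log2 CPM, 4n-whole lay between the fractions for 12 of the 36 genes, above both for 6 and below both for 18. Of all 17488 genes tested, it lay between for 5817, above for 5572 and below for 6099. The 4n-top means lack mouse 1. Tested against the mean of 4n-top and 4n-bottom, 0 of the 36 genes were called by edgeR and 0 by DESeq2 (beside 0.0% of all genes), and 3 had an unadjusted edgeR p under 0.05. Those 3 were Hadhb, Acaa1b and Pdk4, beside 1042 of all 17488 genes at such a p. For Acaa1b the change was 0.29 ± 0.08 (edgeR adjusted p = 0.787), higher in 2 of 3 mice. Fold changes above 0 were seen for 9 of the 36 (25.0%, beside 50.2% of all genes). Other markers moved in the same comparison. The pericentral markers were above 0 for 13 of 13 (median 0.37, 9 at an unadjusted p under 0.05). Above 0 were 1 of 13 periportal markers (median -0.16, 7 at such a p) and 1 of 9 hepatocyte markers (median -0.16, 5 at such a p). Their part in the lean was not tested.

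The largest differences in this pathway were between animals. In the same fit, the level of 25 of the 36 genes differed between the 4 mice at an adjusted p below 0.05 (edgeR quasi-likelihood F test of the 3 mouse terms), which is 69.4%, beside 19.2% of all genes. The members were measured more precisely than most genes, as their median level was 197 CPM and that of all tested genes 4.4 CPM, and the part of this in the difference of the shares was not tested. The range over mice had a median of 0.51 on the log2 scale, beside 0.67 in all genes. It exceeded the range over the 4 population means in 32 of the 36 genes (88.9%, beside 71.6% of all genes). The 4 exceptions were Cd36, Slc25a20, Hadhb and Etfdh. The median range over populations was 0.22, beside 0.47 in all genes (the 4n-top means lack mouse 1). No range was compared with genes of a like level, so none can be called narrower or wider than in other genes. Mouse, liver preparation and sort cannot be told apart here.

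**Figure D3:**
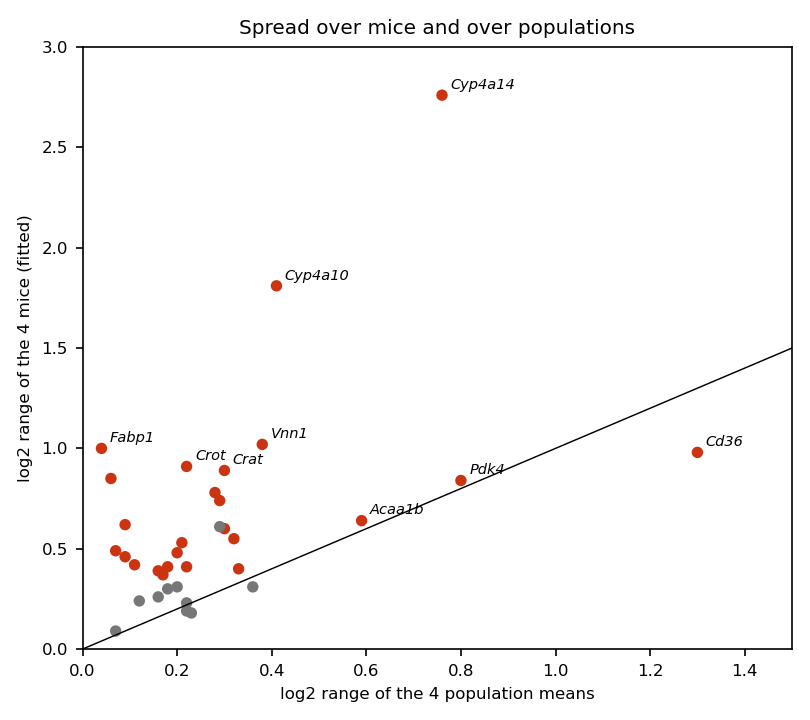
Range over the 4 mice on the log2 scale, fitted with the population as a factor (vertical axis), against the range of the mean log2 CPM of the 4 populations (horizontal axis), for 35 genes without Fgf21. Red points differ between mice at an adjusted p below 0.05, the line marks equal ranges, and Cyp4a14 and Cyp4a10 lie highest above it while Cd36 lies farthest below it.

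Mouse 4 had the highest fitted level of 29 of the 36 genes (80.6%, beside 20.6% of all genes) and the lowest of none. In 8 genes all 4 libraries of mouse 4 lay above all 11 others (22.2%, beside 0.492% of all genes), namely Cpt1a, Cpt2, Hadha, Hadh, Eci1, Ehhadh, Cyp4a10 and Cyp4a14. These 8 span the carnitine shuttle, the spiral, the auxiliary enzymes, the peroxisome and omega oxidation, and all but Hadha (edgeR adjusted p = 0.0548) were among the 25. Without mouse 4, the levels of 13 of the 36 genes differed between the remaining 3 mice, beside 13.8% of all genes then tested, and all 13 were among the 25. They were Ppara, Fabp1, Cpt1a, Crat, Crot, Eci2, Decr2, Acaa1b, Abcd3, Pex11a, Cyp4a10, Cyp4a14 and Plin2. Without mouse 1, 2 or 3 the number was 21, 24 or 20, beside 16.8%, 17.0% and 11.5% of all genes.

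Apart from Fgf21, whose counts are too low for a fold, the omega hydroxylases gave the widest ranges. Cyp4a14 (chr4:115343397-115353344, minus strand, GRCm39) had 768.2 CPM in 2n-whole, 554.9 CPM in 4n-whole, 601.7 CPM in 4n-bottom and 648.3 CPM in 4n-top of mouse 4, and 62.3 to 193.8 CPM in the 11 libraries of the other mice. Its lowest and highest mice differed 6.79-fold (2.76 on the log2 scale, edgeR adjusted p = 7.04e-15). Cyp4a10 (chr4:115375461-115390849, plus strand) had 650.8, 529.8, 536.1 and 611.5 CPM in mouse 4 and 130.2 to 306.8 CPM in the others, a 3.51-fold range (adjusted p = 4.99e-12). In both genes mouse 3 came next after mouse 4. The transcript of Cyp4a10 shares 23.1% of its 75-base stretches with other genes, most with Cyp4a32 and Cyp4a31, so part of its reads may be divided among these copies.

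Ehhadh, a long-known PPAR alpha target, had 386.3, 400.2, 375.5 and 400.8 CPM in mouse 4 and 207.1 to 289.8 CPM in the other libraries. Its range was 0.74 on the log2 scale (edgeR adjusted p = 2.31e-06), and the difference between mice 1 to 3 alone did not pass (adjusted p = 0.442). Eci2 ranged 1.72-fold (adjusted p = 3.61e-06), Acaa1b 1.56-fold (adjusted p = 8.98e-06), Vnn1 2.03-fold (adjusted p = 0.00202) and Pdk4 1.79-fold (adjusted p = 0.0032), each highest in mouse 4. Without mouse 4 the adjusted p was 0.464 for Vnn1 and 0.766 for Pdk4, while Eci2 and Acaa1b were still called.

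**Figure D4:**
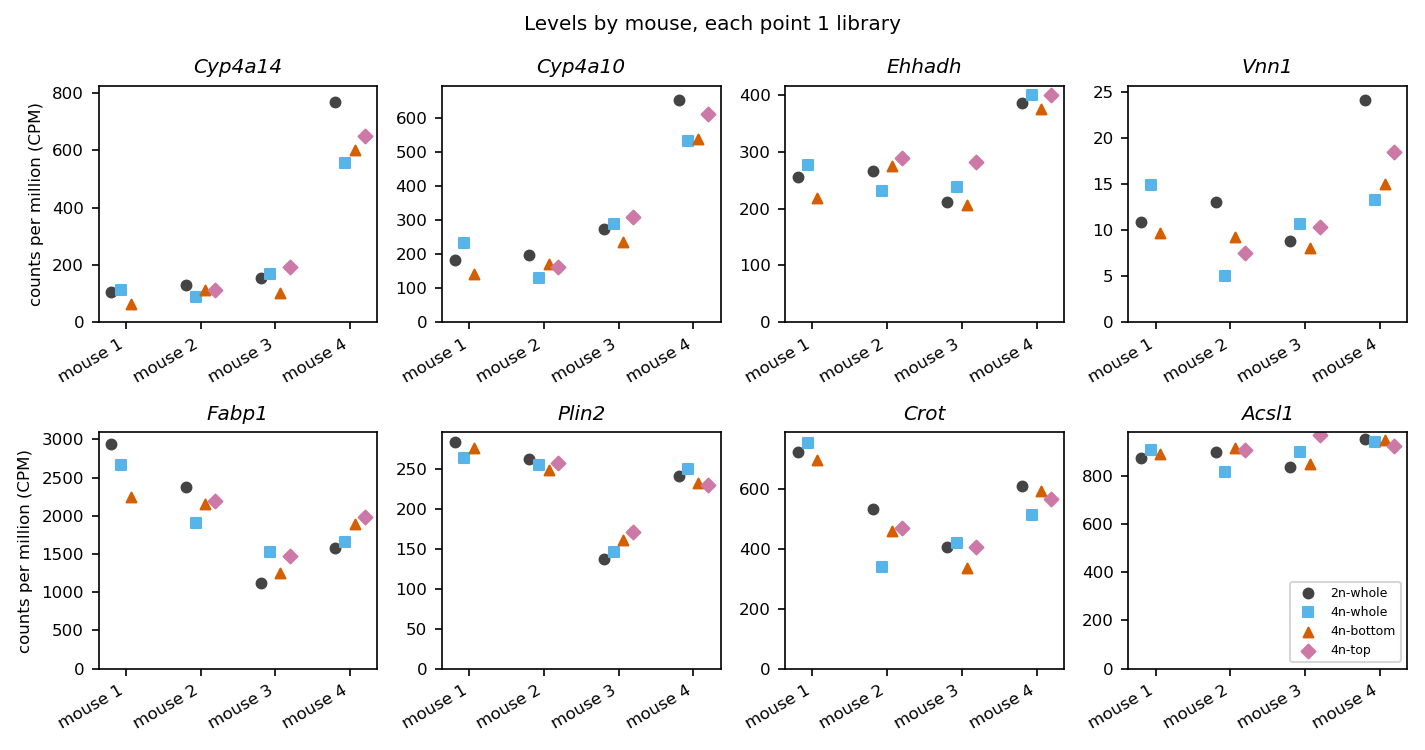
Level in CPM (vertical axis) of 8 genes by mouse (horizontal axis), each point 1 library with its population given by colour and shape. The points of Cyp4a14, Cyp4a10 and Ehhadh stand highest in mouse 4, those of Fabp1 and Plin2 lowest in mouse 3, those of Crot highest in mouse 1, and those of Acsl1 at about the same level in all mice.

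A smaller set had its highest fitted level in another mouse. Apart from Fgf21, Fabp1, Crot, Plin2 and Ppara were highest in mouse 1. They did not share the rest of the order, as Fabp1, Crot and Plin2 were lowest in mouse 3 and Ppara in mouse 2. Ppara stood at 0.21 in mouse 1 and 0.18 in mouse 3 from the mean of the mice on the log2 scale. Plin2 had 284.1, 263.9 and 276.0 CPM in the libraries of mouse 1, all above the 12 others, and 137.2, 146.4, 161.2 and 170.8 CPM in those of mouse 3, all below the 11 others (range 0.85 on the log2 scale, edgeR adjusted p = 2.43e-07). Fabp1 had 1120 to 1526 CPM in mouse 3, again below every other library, and 2244 to 2944 CPM in mouse 1 (range 1.00, adjusted p = 6.72e-07). Crot had 696.9 to 754.3 CPM in mouse 1, above every other library (range 0.91, adjusted p = 1.81e-06). For Ppara the 4 libraries of mouse 2, at 44.2 to 56.5 CPM, were the lowest of the 15 (range 0.60, adjusted p = 0.000157). The receptor thus did not share the order of Cyp4a14 or Ehhadh, as mouse 4 had a Ppara level equal to the mean of the mice (0.00 on the log2 scale). The call of Ppara was lost without mouse 2 (range 0.21, adjusted p = 0.293) and that of Plin2 without mouse 3 (range 0.19, adjusted p = 0.429), while Fabp1 and Crot stayed called without any single mouse.

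By role, the genes that differed between mice (19.2% of all genes) were 5 of 5 for the peroxisomal genes, 4 of 4 for the auxiliary enzymes, 2 of 2 for the omega hydroxylases, 4 of 5 for the carnitine genes, 2 of 3 for uptake and activation, 3 of 4 for the other PPAR alpha targets and 1 of 1 for the receptor, with no test of the shares against each other. In the β-oxidation spiral it was 4 of 9 (Hadh, Acadvl, Acadl and Acadm), and in the electron transfer flavoprotein path 0 of 3. An unadjusted p under 0.05 was found for 1 gene of that path, beside 5405 of all 17488 genes. In the spiral, mouse 1 was the lowest for 7 of the 9 genes and mouse 4 the highest for 8 of them. All 4 called spiral genes were lost without mouse 4, and Acadvl and Acadm also without mouse 1. Other calls that a single mouse other than mouse 4 ended were those of Crat and Hsd17b4 without mouse 1, Cpt1a and Pex11a without mouse 2, and Cpt2, Decr1, Abcd3 and Pex11a without mouse 3. Acsl1 had a range of 0.09 (adjusted p = 0.781), and Slc25a20 one of 0.18 (adjusted p = 0.36).

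**Figure D5:**
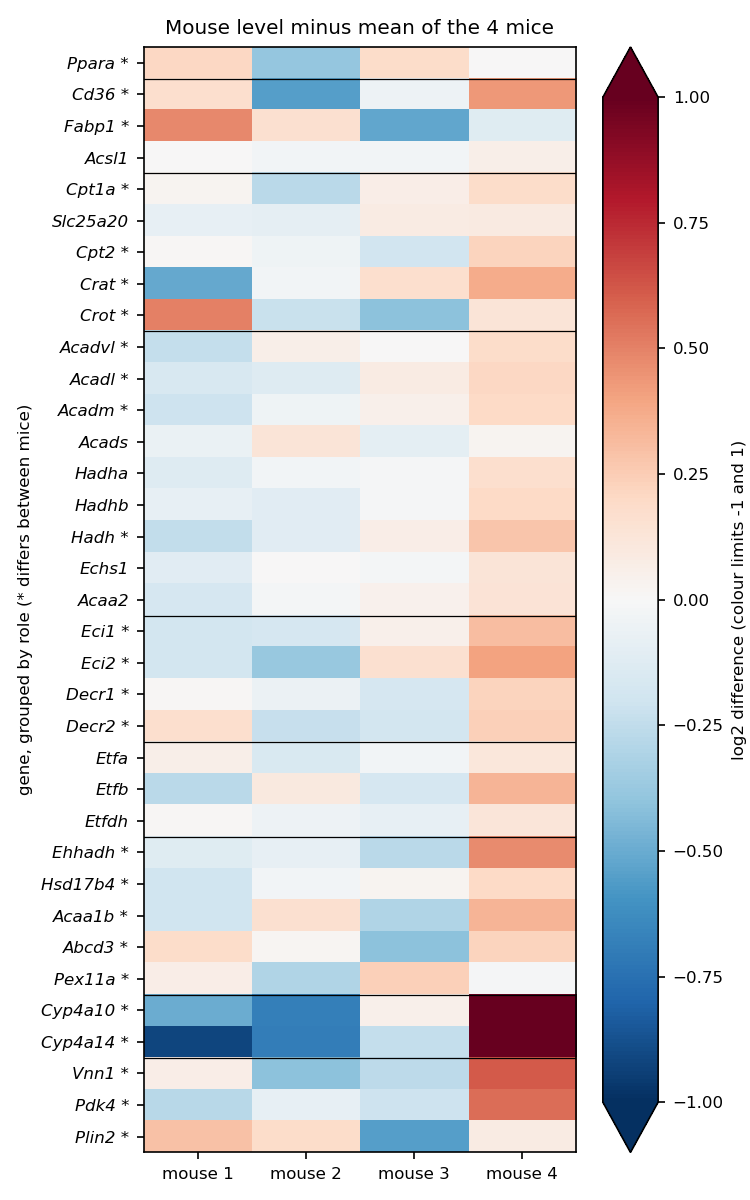
Difference of each mouse from the mean of the 4 mice on the log2 scale (colour, with limits at -1 and 1, which Cyp4a10 and Cyp4a14 exceed in mouse 4), for 35 genes grouped by role (rows, without Fgf21) and the 4 mice (columns). An asterisk marks genes that differ between mice at an adjusted p below 0.05, and the column of mouse 4 is red in nearly every row.

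Other genes of the same biology gave a background for these values. The list held 74 genes, of which 73 were in the table and 70 were tested. In 4n-whole against 2n-whole, 5 were called higher and 4 lower (12.9%, beside 3.47% of all genes). The smallest p-values were those of Aldh3a2, an aldehyde dehydrogenase of fatty aldehydes (log2 fold change 1.60 ± 0.23, edgeR adjusted p = 3.96e-05), Cyp4a12b, an omega hydroxylase (-0.71 ± 0.11, adjusted p = 8.01e-05), and Acot1, an acyl-CoA thioesterase induced by PPAR alpha (0.87 ± 0.14, adjusted p = 0.000228). Aldh3a2 and Acot1 were also called higher in 4n-top against 2n-whole, at 1.51 ± 0.24 and 0.98 ± 0.15 (2.86% of the 70, beside 0.961% of all genes). Ppargc1a, a coactivator of PPAR alpha, was called lower in 4n-whole at -0.59 ± 0.13, and Pparg, a related receptor of low level here (0.457 to 5.71 CPM), higher at 1.55 ± 0.40. The call of Cyp4a31, at -0.70 ± 0.17, was the only one in 4n-bottom against 2n-whole (1.43%, beside 0.463% of all genes). Between 4n-top and 4n-bottom, 0 of the 70 were called by edgeR (beside 0.0114% of all genes). An unadjusted p under 0.05 was found for 4 of the 70, beside 488 of all 17488 genes. Fold changes there were above 0 for 52 of the 70 (74.3%, beside 50.2% of all genes).

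Between mice, 40 of these 70 genes differed (57.1%, beside 19.2% of all genes). Mouse 4 was the highest for 26 of the 70 (37.1%, beside 20.6% of all genes). Acot1 had its highest level in mouse 4 (range 1.89 on the log2 scale, adjusted p = 4.12e-10), and Cyp4a12a its lowest (-0.93 from the mean of the mice, range 1.62, adjusted p = 9.84e-11). Angptl4, a secreted inhibitor of lipoprotein lipase, was lowest in mouse 2 at -1.15 (range 1.72, adjusted p = 2.78e-11).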

How the data were processed

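The submitters' processing notes name the build GRCm39, STAR 2.7.11a and featureCounts of Subread. Libraries came from a SMART-Seq Stranded kit. The deposited table holds raw counts per gene symbol, which the authors made without normalization. The annotation and the strand setting are not given in the sources used here.

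CPM are counts per 1000000 of the TMM effective library size. The test was edgeR 4.0.16 in R 4.3.3 (TMM, low-count filter by population, count at least 10 and total at least 15, quasi-likelihood F test, population and mouse as factors, all 15 libraries, Benjamini-Hochberg over 17488 genes). The mouse is the subject number in the labels, and the authors also treated differences among mice as a batch effect. Residuals of same-mouse libraries correlated at 0.0845 to 0.2272 across genes. P-values between populations and between these 4 mice come from the same fit. Both are judged against the spread left between libraries once population and mouse are fitted. Libraries of a mouse are gates on the same liver, so p-values between mice hold no spread between repeated preparations of an animal.

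Alternatives were no replicate block, DESeq2 1.42.0 with the block, ComBat-seq (sva 3.50.0) followed by DESeq2, DESeq2 size factors in edgeR, no filter, the compared populations only, no fold limit, a fold limit between mice and leaving out each mouse. Fits without mitochondrial transcripts and without the 4n-whole library of mouse 2 were chosen after seeing the data. The code was tested on simulated data.

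The members and gene lists were chosen with earlier results of these data known. All 36 members are named. From the related and zonation lists, up to 3 called genes with the smallest p of a comparison are named, and Acaa1a, Ppargc1a, Pparg, Spp1 and Sox9 were named after their values were seen. Positions, lengths and shared 75-base stretches come from GENCODE M39 (GRCm39), and promoters from RefSeq (GRCm38.p6). No interval covers more than the spread between these libraries, and counts of PCR reads are not independent molecules.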

Additional observations from a re-analysis of the deposited data

Results flagged for a closer look

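Within groups of 4 libraries, the highest or lowest library was compared with the rest by Dixon's ratio on the log2 scale for 108 pairs of a gene and a group, and 5 passed the 95% limit, about as many as the 1 in 20 that chance gives. Cd36 in 2n-whole was highest in mouse 4 at 45.26 CPM, with the others at 30.42 to 32.22. Pdk4 in 4n-whole was highest in mouse 4 at 17.95 CPM, with the others at 12.5 to 13.19, and its call against 2n-whole was lost without that mouse. Abcd3 in 2n-whole was lowest in mouse 3 at 436.7 CPM, with the others at 669.7 to 730.0. Plin2 in 4n-whole was lowest in mouse 3 at 146.4 CPM, with the others at 250.6 to 263.9, and it was lowest in that mouse in every population. Pex11a in 2n-whole was lowest in mouse 2 at 18.08 CPM, with the others at 24.34 to 25.74.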

How the results depend on the processing

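The mouse was the replicate block of the reported fit, and without the replicate block the number of genes called among the 36 fell to 0 in 4n-whole (from 3), 4n-bottom (from 1) and 4n-top (from 1) against 2n-whole. Without the share of all genes called in that fit, the fall cannot be called particular to these genes. With no fold limit, 4n-top against 2n-whole had 2, Cd36 and Acaa1b. Leaving out each mouse in turn gave 2 to 3 called genes in 4n-whole against 2n-whole (2 without mouse 4, which ends the call of Pdk4), 0 to 1 in 4n-top against 4n-bottom and 1 to 2 in 4n-bottom against 2n-whole (the upper value of both without mouse 2, with Cyp4a14). Between mice it gave 13 to 24 in place of 25, with 13 without mouse 4, and adding a fold limit gave 16. The shares of all genes called between populations without each mouse, and between mice with a fold limit, are not given here. The cause of these changes in the counts was not tested. The other settings gave 25 to 27 genes between mice. They gave the same counts between populations, except 4 with no fold limit in 4n-whole against 2n-whole. Over the single genes and settings, no called value changed sign. A fold change that was not called changed sign in 187 cases, and 1962 values kept both direction and call. Cd36 stayed between -1.41 and -0.81 in 4n-whole against 2n-whole, Acaa1b between 0.53 and 0.68 and Pdk4 between 0.71 and 0.84. Depth limits Fgf21, with 0 to 28 counts, and annotation limits Etfb, Hadhb, Hadha, Ppara, Acaa1b and Cyp4a10.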
